A study of Mus musculus with 22 samples.

Results

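The 9 genes described here encode proteins that carry, make, break down and sense retinoids: Rbp4, Stra6, Crabp1, Crabp2, Aldh1a2, Cyp26a1, Rara, Rarb and Rarg. They were taken by symbol from a table of 21881 gene symbols, and all 9 were found. The table gave counts per symbol in 7 mouse cell lines and in 8 mouse embryos of embryonic day 3.5. All lines were labelled wild type for Nanog, the pluripotency gene that the study examined. The embryonic stem (ES) lines were a female, F1, and a male, M2, and their titles say serum free. The trophoblast stem (TS) lines were the females F1 and F2 and the male M3, and the extraembryonic endoderm (XEN) lines were the males M1 and M2. No medium was named for TS and XEN lines. Each line had 2 technical replicate libraries made from different passages, 14 in all, whose counts were summed so that a line counted once. The embryos were 1 female and 1 male wild type, 1 female and 1 male heterozygous for Nanog, and 2 females (F1, F2) and 2 males (M1, M2) labelled knockout, called Nanog-null below. The labels used here name no strain, no Nanog allele and no derivation of the lines, so p-values measure the spread between these lines only.

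Libraries of lines held 8201801 to 23677126 counts, and those of embryos 14768624 to 32231620. Levels are given as CPM, counts per 1000000 of the total count of the library or, for a line, of both its libraries together. Nanog itself followed the labels, with 137 and 107 CPM in wild-type, 87.6 and 53.6 CPM in heterozygous and 0.3 to 0.624 CPM in null embryos. Embryo libraries came from amplified cDNA and line libraries from another kit, so embryos were never set against lines. The lineage labels were checked on 8 markers each: the ES markers summed to 6093 to 7322 CPM in ES libraries and at most 1261 CPM in other lines. The TS markers summed to 2872 to 8606 CPM in TS libraries and at most 1219 CPM in other lines, and the XEN markers to 16417 to 27163 CPM in XEN libraries and at most 348 CPM in other lines. Of the embryo markers, Esx1 of the TS list and Foxa2 of the XEN list were at 0 in every embryo. Line TS M3 stood apart from both other TS lines. Its sum over 7 markers of differentiated trophoblast was 2267 and 4073 CPM in its libraries, against 634 to 1472 CPM in theirs. The TS markers were highest in M3 too, at 8606 and 6749 CPM against 2872 to 3562 CPM in the libraries of F1 and F2. All libraries are of bulk RNA, in which fewer cells of a type and less RNA per cell cannot be told apart.

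Retinol, or vitamin A, travels in blood bound to RBP4, which is carried by transthyretin, and enters cells through the receptor STRA6. Inside the cell, retinol is oxidised to retinaldehyde and then, by enzymes such as ALDH1A2, to retinoic acid, which the CRABP proteins bind in the cytoplasm and the CYP26 enzymes break down. Retinoic acid acts in the nucleus on the receptors RARA, RARB and RARG, which pair with RXR receptors and bind repeated half-sites in DNA. It is known for driving ES cells to differentiate, and Rarb and Cyp26a1 are textbook examples of genes that it induces directly.

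The element through which that induction is known to run is a DR5 element, a direct repeat of 2 half-sites (AGGTCA or a variant, here GGGTCA and also AGTTCA or else GGTTCA) spaced by 5 bases. Windows from 250 bases before to 50 bases after each start, from RefSeq on GRCm38.p6, were searched on both strands, 32851 windows of 27025 genes. Of the 9 genes, 8 had a window and Crabp2 had none. A DR5 element was in 32 of the windows, 0.0974% of them, and in 2 of the 16 windows of the 8 genes, 1 of Rarb and 1 of Cyp26a1. The closer DR2 repeat, with a spacer of 2 bases, was in 0.268% of all windows and in none of the 16. Both stretches are shown because they alone of the 16 hold the element. They are printed 5′ to 3′ on the strand of the gene and end at the base before its start, with the element in capitals.
Rarb, chr14:16575477-16575589, minus strand: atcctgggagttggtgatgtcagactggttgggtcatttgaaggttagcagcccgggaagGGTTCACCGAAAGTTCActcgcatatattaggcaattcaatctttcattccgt
Cyp26a1, chr19:37697716-37697807, plus strand: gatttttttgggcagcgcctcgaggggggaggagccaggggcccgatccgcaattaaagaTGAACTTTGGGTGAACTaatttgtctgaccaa
The element of Rarb lies 53 to 37 bases before the start and reads in the direction of the gene. That of Cyp26a1 lies 32 to 16 bases before the start and reads on the opposite strand, so that its capitals show the half-sites in reverse complement. A match of letters is a description and not a bound site.

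Levels of the 9 genes in the lines had several orders. XEN lines held most of the retinol carrier Rbp4 and its receptor Stra6, and were the lines with Rarb. ES lines held most of the binding proteins Crabp1 and Crabp2, with Aldh1a2 and Rarg, and had next to no Cyp26a1. TS lines lay between, with Cyp26a1 inside the range of the XEN lines. On a log scale their Rarg and Crabp1 were nearer to the ES lines, and their Rarb was near 0 as in ES lines. Rara was present in all 7 lines and differed least between them.

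**Figure D1:**
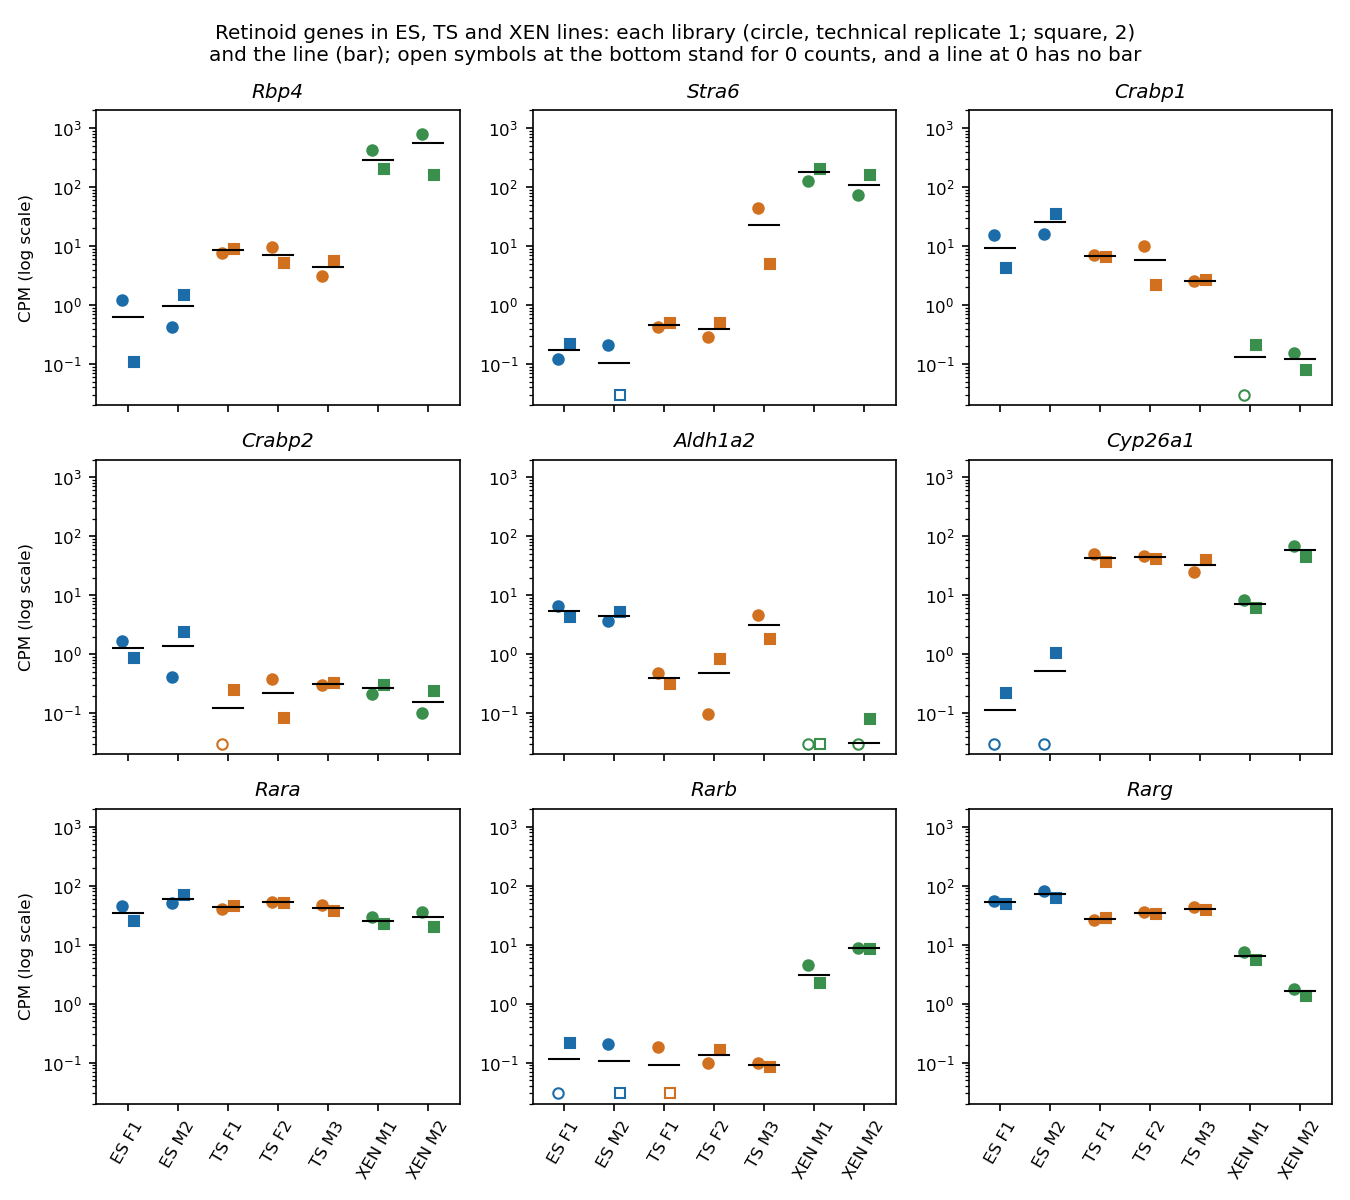
Level of each of the 9 genes in the 14 line libraries, in CPM on a log axis, with circles for technical replicate 1, squares for technical replicate 2, a bar for the line, and open symbols for 0 counts. Rbp4 and Stra6 were above 70 CPM in all 4 XEN libraries, Rarb was above 2 CPM in XEN libraries alone, and Rara lay between 19.9 and 68.8 CPM throughout.

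The lineages were compared in 1 edgeR quasi-likelihood fit over the 7 lines, with Benjamini-Hochberg adjustment over 14687 tested genes and a threshold of 0.05, so that a called gene is one with an adjusted p below it. Between ES and TS lines, 4 of the 9 genes were called. Crabp1 and Crabp2 were higher in ES lines, where 20.0% of all tested genes were called higher, and Rbp4 and Cyp26a1 were lower, where 21.3% of all genes were. The median log2 fold change of the 9 genes was 0.02, against -0.02 over all genes. Between ES and XEN lines, 8 of the 9 were called. Crabp1, Crabp2, Rarg and Aldh1a2 were higher in ES lines, against 23.4% of all genes, and Rbp4, Stra6, Rarb and Cyp26a1 were lower, against 21.8% (median 0.46, and 0.05 over all genes). Between TS and XEN lines, 5 of the 9 were called. Crabp1, Rarg and Aldh1a2 were higher in TS lines, against 20.3% of all genes, and Rbp4 and Rarb were lower, against 16.4% (median -0.01, and 0.02 over all genes). The 3 comparisons share lines and are not independent of each other.

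**Figure D2:**
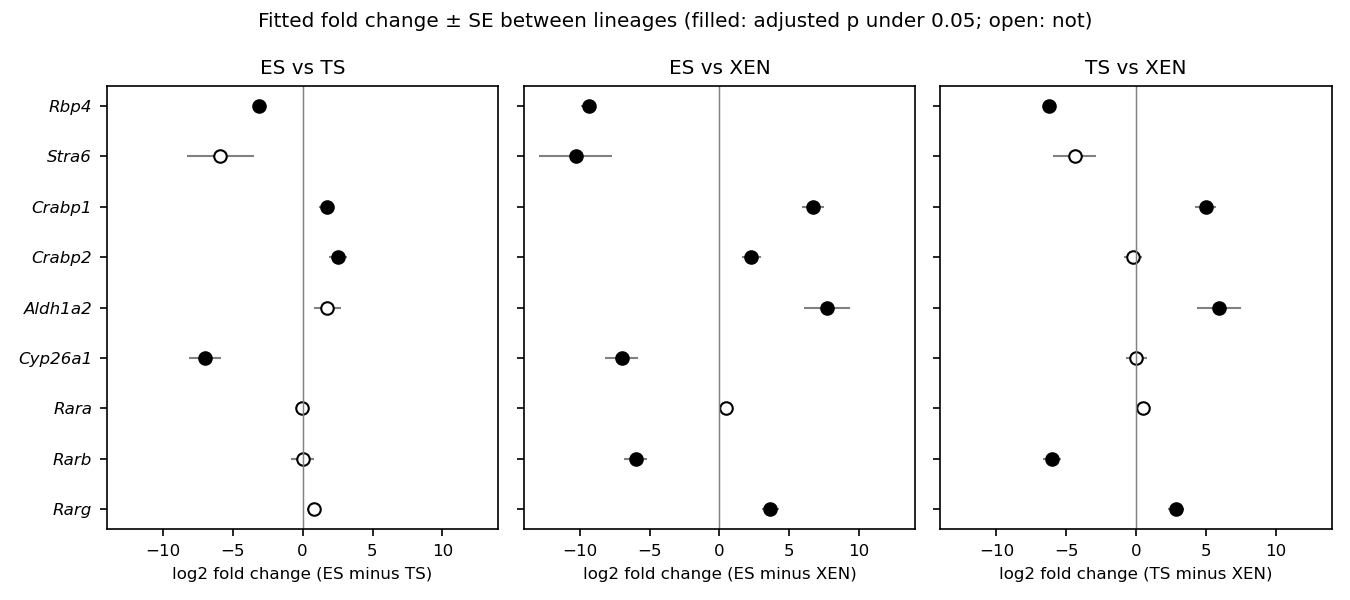
Fitted log2 fold changes of the 9 genes with their SE (bars) between ES and TS, ES and XEN, and TS and XEN lines, with filled points for an adjusted p under 0.05. In the ES against XEN panel 8 of 9 points are filled, with only Rara open, and the bars of Stra6 are the widest.

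Without ES line M2 the ES against TS comparison called 2 of the 9 genes, and in the 4 male lines alone (1 ES, 1 TS and 2 XEN) it called 1. In the male lines ES against XEN called 5 and TS against XEN called 4. Calls over all genes fell too, from 6063 to 2827 without ES M2 and to 1306 in male lines for ES against TS, from 6630 to 3037 in male lines for ES against XEN, and from 5385 to 2031 for TS against XEN. Both XEN lines are male, so XEN lineage and sex cannot be told apart beyond that, nor can ES lineage and the serum-free culture.

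Rbp4, the plasma carrier of retinol, had the highest level per length of the 9, 309 ± 141 CPM per kb of merged exons in XEN lines (SD, n = 2). In plain CPM it was 0.631 CPM in ES F1 and 0.952 CPM in ES M2. The TS lines F1, F2 and M3 had 8.41, 7.11 and 4.49 CPM, and XEN M1 and M2 had 282 and 549 CPM. The 3 lineages formed separate steps with no overlap between lines. Relative to XEN lines (415 ± 189 CPM, SD, n = 2), Rbp4 was 659-fold lower in ES lines, with a log2 fold change of -9.36 (SE 0.54, edgeR adjusted p = 4.57e-05). The step from ES (0.792 ± 0.227 CPM, n = 2) to TS lines (6.67 ± 2.00 CPM, n = 3) was 8.7-fold (log2 fold change -3.12, SE 0.44, edgeR adjusted p = 0.00197), and that from TS to XEN lines was 75.7-fold (-6.24, SE 0.38, edgeR adjusted p = 6.79e-05). The libraries of a XEN line differed by up to 5-fold, at 801 and 160 CPM in M2 and 419 and 201 CPM in M1. With each line left out in turn the 3 calls held, and the ES against TS value stayed between -3.43 and -2.89. That call was lost with limma voom on the 14 libraries with line as a random effect (-3.46, adjusted p = 0.0986) and in male lines alone (-2.43, edgeR adjusted p = 0.0961).

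Stra6, the cell-surface receptor that takes up retinol from RBP4, was high in the same lines. XEN M1 had 177 CPM and XEN M2 107 CPM, while ES F1 and M2 had 0.172 and 0.106 CPM, from 5 counts together. TS F1 and F2 were at 0.459 and 0.4 CPM, but TS M3 was at 22.4 CPM. The TS lines thus did not form 1 group: M3 lay between the other TS lines and the XEN lines, and its libraries differed 8.91-fold, at 43.5 CPM (434 counts) and 4.89 CPM (59 counts). This was the widest gap between the libraries of 1 line among 37 pairs with at least 10 counts in both, whose median was 1.38-fold. Stra6 was lower in ES than in XEN lines, with a log2 fold change of -10.29 (SE 2.59, edgeR adjusted p = 0.0157). TS against XEN was not called (log2 fold change -4.40, SE 1.52, edgeR adjusted p = 0.0578), nor was ES against TS (-5.89, SE 2.40, edgeR adjusted p = 0.0862).

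The position of TS lines for Stra6 moved with line M3 and with the model. Limma voom on the 14 libraries with line as a random effect called TS against XEN (-6.94, adjusted p = 3.51e-05). Without M3, TS against XEN was -8.65 (edgeR adjusted p = 0.000111), and with M3 represented by its technical replicate 2 library alone, an alternative added after the values were seen, it was -6.68 (edgeR adjusted p = 0.00241). ES against TS was called without TS F1 (-6.46, edgeR adjusted p = 0.0440) or TS F2 (-6.47, adjusted p = 0.0485), which gave M3 more weight. The ES against XEN call was lost without ES F1 (-10.69, edgeR adjusted p = 0.117), without ES M2 (-9.97, adjusted p = 0.122) and without the filter on low counts (-10.32, adjusted p = 0.0600). The differentiated trophoblast markers, all 7 of which had counts in TS libraries, were highest in M3, as Stra6 was. Within M3 the library with more Stra6 had the lower marker sum. The other TS lines did not follow Stra6. Their marker sums were 1154 and 634 CPM in F1 and 1472 and 1132 CPM in F2, with Stra6 at 0.459 CPM in F1 and 0.4 CPM in F2. A list of 9 fibroblast markers, for feeder cells, summed to 75.7 and 32.3 CPM in the libraries of M3. It summed to 15.9 and 43.8 CPM in those of F1, and 232 and 27.7 CPM in those of F2. This sum was higher in the M3 library with more Stra6, but highest in a library of F2, where Stra6 was low. The part of both marker lists in the result was not tested.

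Other genes of retinol transport were read from a list of 10, of which 6 were tested. They were called in both directions: in ES against XEN lines 2 were higher and 3 lower, in TS against XEN lines 2 higher and 2 lower, and in ES against TS lines 1 higher and 2 lower. The shares of all genes called in these directions were those given above, 23.4% and 21.8%, 20.3% and 16.4%, and 20.0% and 21.3%. The list median was -0.69, 0.87 and -0.13 in that order, against 0.05, 0.02 and -0.02 over all genes. Ttr, which encodes the transthyretin that carries RBP4 in blood, had 0 counts in every ES and TS library, and 29.2 and 73.3 CPM in XEN M1 and M2. Taking 3 counts in a whole group as the most that 0 allows, it was at least 599-fold higher in XEN than in ES lines and at least 1274-fold higher than in TS lines (edgeR adjusted p = 0.00158 and 0.00111). Lrp2, which encodes the endocytic receptor megalin, was 128 and 147 CPM in XEN M1 and M2. It was 5.57 and 3.54 CPM in ES F1 and M2, and 0.245, 0.844 and 2.63 CPM in TS F1, F2 and M3, lower than in XEN lines in both cases (log2 fold change -5.25, edgeR adjusted p = 0.00316, and -7.07, adjusted p = 0.000850). Without TS M3 the second value was -8.38. Rbp4, Stra6, Ttr and Lrp2 were thus all highest in the XEN lines. A list of 7 visceral endoderm markers summed to 427 to 1056 CPM in XEN libraries and at most 8.27 CPM in other lines, and all 7 had counts in XEN libraries. It was higher in XEN M1 than in XEN M2, as Stra6 was, while Rbp4, Ttr and Lrp2 were higher in XEN M2. The part of this list in these levels was not tested.

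Fabp5, a fatty-acid-binding protein gene whose product can also bind retinoic acid, had another order. It was 107, 55.3 and 101 CPM in TS F1, F2 and M3, 8.61 and 17 CPM in ES F1 and M2, and 16.3 and 13 CPM in XEN M1 and M2. All TS lines lay above all others. It was higher in TS lines than in ES lines (log2 fold change -2.86 for ES minus TS, SE 0.43, edgeR adjusted p = 0.00245) and XEN lines (2.32, SE 0.42, adjusted p = 0.00481).

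The binding proteins CRABP1 and CRABP2 hold retinoic acid in the cytoplasm, and CRABP2 is known to pass it to the receptors. Crabp1 was 9.41 CPM in ES F1 and 25.3 CPM in ES M2. TS F1, F2 and M3 had 6.73, 5.86 and 2.59 CPM, and XEN M1 and M2 had 0.133 and 0.124 CPM, from 5 and 4 counts. All lines of a lineage lay above all lines of the next. Compared with XEN lines, Crabp1 was 103-fold higher in ES lines (log2 fold change 6.68, SE 0.79, edgeR adjusted p = 0.000688) and 31.2-fold higher in TS lines (4.96, SE 0.73, edgeR adjusted p = 0.00212). Without ES M2 the first value was 5.82, and both calls held with each line left out.

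The difference in Crabp1 between ES and TS lines was smaller and less stable. Its log2 fold change was 1.72 (SE 0.53, edgeR adjusted p = 0.0350). It was 0.87 without ES M2 (edgeR adjusted p = 0.362), 1.82 without TS F2 (adjusted p = 0.0689) and 1.43 without TS M3 (adjusted p = 0.0619). The libraries of a line differed here: ES F1 had 15.2 and 4.23 CPM, ES M2 15.7 and 35.1 CPM, and TS F2 10.1 and 2.22 CPM, so the ES and TS libraries overlapped. The fibroblast markers summed to 232 and 27.7 CPM in the same libraries of TS F2. They summed to 13.2 and 6.62 CPM in those of ES F1 and 11.8 and 20.1 CPM in those of ES M2. Of these markers, Col3a1, Dcn, Lum and Postn had 0 counts in ES libraries. In TS F1 and M3 the library with the higher sum had less Crabp1. The part of these markers was not tested. Technical replicate 1 libraries alone gave 1.17 (edgeR adjusted p = 0.189) and replicate 2 libraries alone 2.35 (adjusted p = 0.0563).

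Crabp2 was low in all lines and highest in the ES lines. ES F1 and M2 had 1.26 and 1.37 CPM, from 22 and 26 counts. TS F1, F2 and M3 had 0.122, 0.222 and 0.318 CPM, and XEN M1 and M2 had 0.266 and 0.155 CPM, all from 10 counts or fewer. The ES lines lay above the rest, and TS and XEN lines overlapped. Crabp2 was 5.68-fold higher in ES than in TS lines (log2 fold change 2.51, SE 0.63, edgeR adjusted p = 0.0172) and 4.85-fold higher than in XEN lines (2.28, SE 0.70, edgeR adjusted p = 0.0323). TS and XEN lines differed by -0.23 (SE 0.67, edgeR adjusted p = 0.814), with 0.10 without TS F1 and 0.20 without XEN M1. A list of 6 markers of early ES cell differentiation, all with counts in ES libraries, summed to 55.1 and 34.6 CPM in the libraries of ES F1, 33 and 58.4 CPM in those of ES M2, and at most 4.91 CPM in other lines. Crabp2 was 1.71 and 0.868 CPM in the same libraries of F1 and 0.419 and 2.35 CPM in those of M2, the same order. Crabp1 was higher in the same library of each ES line, and so were Rbp4, Rara and Aldh1a2. Stra6, Rarb, Rarg and Cyp26a1 were not. The part of these markers in the result was not tested. Both calls of Crabp2 rested on few lines. The first was lost without ES F1 (2.53, edgeR adjusted p = 0.108) or ES M2 (2.46, adjusted p = 0.109). The second was lost without ES F1 (2.32, edgeR adjusted p = 0.136), ES M2 (2.23, adjusted p = 0.151), XEN M1 (2.70, adjusted p = 0.0835) or XEN M2 (1.95, adjusted p = 0.154), and with DESeq2 (2.35, adjusted p = 0.0650).

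Aldh1a2, the enzyme that makes most retinoic acid in the early embryo, was found in ES lines and was nearly absent from XEN lines. ES F1 and M2 had 5.45 and 4.39 CPM, from 95 and 83 counts. TS F1 and F2 had 0.398 and 0.489 CPM, and TS M3 had 3.13 CPM. XEN M1 had 0 counts and XEN M2 had 1. As with Stra6, TS M3 stood apart from the other TS lines, and its libraries gave 4.72 and 1.82 CPM. The fibroblast markers summed to 75.7 and 32.3 CPM in the same libraries. In TS F1 and F2 the library with the higher sum had less Aldh1a2. The part of these markers in the level of Aldh1a2 was not tested. The ratio of ES to XEN lines was 342, with a 95% counting interval, for counting error only, from 60.6 to 13585 (edgeR adjusted p = 0.00738, called with each line left out). The ratio of TS to XEN lines was 84.1, with an interval from 14.7 to 3356 (edgeR adjusted p = 0.0224). Without XEN M1 or XEN M2 the fitted ES against XEN value of 7.70 became 6.77 or 9.85. The TS against XEN call, fitted at 5.94, was lost without XEN M1 (5.00, edgeR adjusted p = 0.117) or XEN M2 (8.08, adjusted p = 0.0683), and was 4.27 without TS M3 (adjusted p = 0.0149). ES and TS lines differed by 1.77 on the log2 scale (SE 0.96, edgeR adjusted p = 0.174), and without TS M3 by 3.44 (adjusted p = 0.00890).

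Cyp26a1, the enzyme that oxidises retinoic acid for clearance, had nearly the reverse distribution. ES F1 had 0.115 CPM and ES M2 0.529 CPM, from 2 and 10 counts, and 2 of the 4 ES libraries had 0. TS F1, F2 and M3 had 43.3, 43.7 and 33.1 CPM. XEN M1 had 6.99 CPM and XEN M2 59.2 CPM. The TS lines were close to each other, while the XEN lines lay far apart, one below and one above them. Cyp26a1 was 126-fold lower in ES than in TS lines (log2 fold change -6.98, SE 1.14, edgeR adjusted p = 0.00341) and 127-fold lower than in XEN lines (-6.99, SE 1.16, edgeR adjusted p = 0.00284). Both calls held with each line left out, but their size moved. Technical replicate 1 libraries alone, with 0 counts in ES lines, gave -11.93 and -12.08, which depend on how 0 is fitted, and replicate 2 libraries alone -5.94 and -5.57. ES against TS was -6.32 without ES F1 and -8.42 without ES M2, and ES against XEN was -6.33 and -8.44 without those lines, -7.83 without XEN M1 and -4.74 without XEN M2. In male lines alone neither was called (-6.15, edgeR adjusted p = 0.221, and -6.28, adjusted p = 0.171).

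TS and XEN lines did not differ in Cyp26a1 beyond the spread between lines (log2 fold change -0.01, SE 0.75, edgeR adjusted p = 0.997). The sign of this value changed with the setting. Without TS M3 it was 0.07, and without XEN M2, which left M1 as the XEN line, it was 2.24 (edgeR adjusted p = 0.0276). The sum of visceral endoderm markers was 1056 and 866 CPM in the libraries of XEN M1 and 427 and 545 CPM in those of XEN M2. Its part in the gap between these lines was not tested.

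The sister enzymes Cyp26b1 and Cyp26c1 were called by edgeR in no comparison of the 7 lines. Cyp26b1 was 0.0574 and 0.370 CPM in ES F1 and M2, 0.184, 0.622 and 8.03 CPM in TS F1, F2 and M3, and 0.106 and 0.155 CPM in XEN M1 and M2. TS M3 was again the line that stood apart. The TS against XEN difference was 4.25 (SE 1.77, edgeR adjusted p = 0.0990) and 4.82 without TS F1 (adjusted p = 0.0455). It was also called with DESeq2 (4.34, adjusted p = 0.0150) and by edgeR in male lines alone (5.76, adjusted p = 0.0225). Cyp26c1 had at most 17 counts in a line. Per kb of merged exons, Cyp26a1 was 20.2 ± 3.01 CPM in TS lines (SD, n = 3), against 0.550 ± 0.824 CPM for Cyp26b1.

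Enzymes of retinoic acid synthesis were read from a list of 22 genes, of which 15 were tested. In ES against TS lines 2 were higher and 3 lower, in ES against XEN lines 3 higher and 2 lower, and in TS against XEN lines 4 higher and 2 lower. The shares of all genes called in these directions were 20.0% and 21.3%, 23.4% and 21.8%, and 20.3% and 16.4%. The list median was -0.59, 0.03 and -0.14 in that order, against -0.02, 0.05 and 0.02 over all genes. Dhrs3, a reductase that turns retinaldehyde back into retinol, was 0.976 and 0.687 CPM in ES F1 and M2. It was 2.42, 3.78 and 9.26 CPM in TS F1, F2 and M3, and 16.8 and 15.6 CPM in XEN M1 and M2. It rose in steps like Rbp4, and was 24.5-fold lower in ES than in XEN lines (log2 fold change -4.61, SE 0.77, edgeR adjusted p = 0.00288). The smaller steps of Dhrs3 were called too (ES against TS -2.72, edgeR adjusted p = 0.0184, and TS against XEN -1.89, adjusted p = 0.0394). ES against TS was lost without ES F1 (-3.02, adjusted p = 0.0888) or ES M2 (-2.47, adjusted p = 0.119) and was -1.91 without TS M3. TS against XEN was -2.71 without TS M3 and lost its call without any of the other 6 lines, with values from -1.95 to -1.53.

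Dehydrogenase genes of the same list were named too. Dhrs4 was 14.3 CPM on average in ES lines, 10.2 in TS lines and 2.54 in XEN lines, lower in XEN lines than in both (edgeR adjusted p = 0.00168 and 0.00388). Adh1, an alcohol dehydrogenase gene, was 1.5 CPM in ES lines and 0.261 CPM in TS lines. It had 0 counts in XEN lines, so it was at least 34.6-fold lower there than in ES and 5.73-fold lower than in TS lines, with 3 counts per group as the most allowed by 0. ES against TS was called (2.44, edgeR adjusted p = 0.0388) but lost without ES F1 (1.97), ES M2 (2.79), TS F1 (2.13) or TS F2 (2.22), and was 3.13 without TS M3. Its ES against XEN call held with each line left out (edgeR adjusted p = 0.00432), while TS against XEN (adjusted p = 0.0238) was lost without XEN M1 (0.0833) or XEN M2 (0.0710). Adh5, an abundant and general enzyme of the same family, was 289 CPM in ES, 162 in TS and 149 in XEN lines. Its level was higher in ES than in XEN lines by 0.61 (SE 0.19, edgeR adjusted p = 0.0312). That call was lost without ES F1 (0.68), ES M2 (0.53) or XEN M1 (0.43). It was higher in ES than in TS lines by 0.77 (SE 0.17, edgeR adjusted p = 0.0103), lost without ES F1 (0.83, adjusted p = 0.0628) or ES M2 (0.69, adjusted p = 0.0903). Of the other genes that make retinoic acid, Aldh1a3 was 1.97 CPM in TS lines and Aldh1a1 at most 1.18 CPM in any line. Per kb, Aldh1a2 in ES lines (2.17 ± 0.332 CPM, n = 2) was the highest of these 3 aldehyde dehydrogenases in any lineage.

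**Figure D3:**
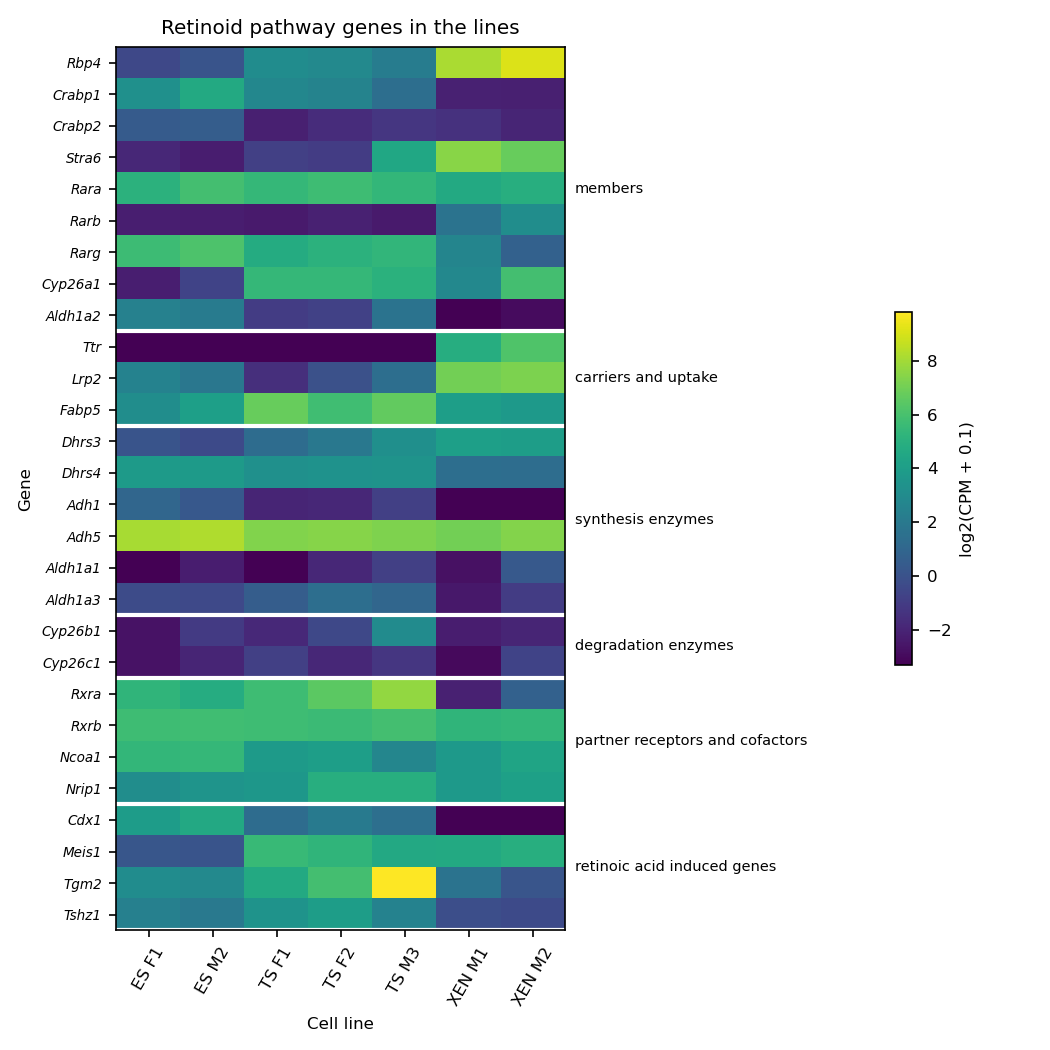
Level of the 9 genes (top block) and of 19 tested genes of 5 retinoid lists, those named in the text, in each of the 7 lines, as log2(CPM + 0.1), from dark (low) to yellow (high). Ttr is dark in all ES and TS lines, Adh1 and Cdx1 are dark in both XEN lines, and Tgm2 is brighter in TS M3 (902 CPM) than in the other lines.

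The nuclear receptors differed in a way that changed their mix between lineages. Rara was 34.8 and 59.9 CPM in ES F1 and M2, 42.6, 52.3 and 41.4 CPM in TS F1, F2 and M3, and 24.8 and 29.6 CPM in XEN M1 and M2. In CPM of library totals both XEN lines were below all others, but none of the 3 differences passed the test. Against the scaling of the fit, library totals shifted the median of all genes by 0.338 in ES against XEN and 0.276 in TS against XEN. They were -0.01 for ES against TS (SE 0.25, edgeR adjusted p = 0.983), 0.46 for ES against XEN (SE 0.28, adjusted p = 0.219) and 0.46 for TS against XEN (SE 0.26, adjusted p = 0.193). The first was 0.31 without ES F1 and 0.08 without TS F2, so its sign was not settled.

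Rarb, the receptor gene that retinoic acid is known to induce, was found in XEN lines. XEN M1 had 3.06 CPM and XEN M2 8.61 CPM, from 115 and 277 counts. ES F1 and M2 had 0.115 and 0.106 CPM, and TS F1, F2 and M3 had 0.0918, 0.133 and 0.0908 CPM, each from 2 or 3 counts. No ES or TS library had more than 3 counts, so levels there rest on very few reads. Rarb was 64-fold lower in ES than in XEN lines (log2 fold change -6.00, SE 0.80, edgeR adjusted p = 0.00113) and 64.7-fold lower in TS lines (-6.02, SE 0.66, edgeR adjusted p = 0.000635). Without XEN M2 these values were -5.07 and -5.08, both still called. In male lines alone TS against XEN missed the threshold (-6.07, edgeR adjusted p = 0.0517). ES and TS lines differed by 0.02 (SE 0.82, edgeR adjusted p = 0.990), with -0.07 without ES F1, -0.10 without TS F1 and -0.03 without TS M3. The DR5 stretch printed above belongs to this gene, and a like element stands before Cyp26a1. In TS lines Rarb had 2 or 3 counts each, while Cyp26a1 was 33.1 to 43.7 CPM. In ES F1 and M2 Cyp26a1 was 0.115 and 0.529 CPM, low as Rarb was. In XEN M1 and M2 it was 6.99 and 59.2 CPM, higher in M2 as Rarb was. The part of the elements in these levels was not tested.

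Rarg went the other way. ES F1 and M2 had 51.9 and 71.0 CPM, TS F1, F2 and M3 had 27.2, 34.1 and 40.6 CPM, and XEN M1 and M2 had 6.27 and 1.62 CPM. The lineages did not overlap, and the XEN lines differed from each other by a larger factor than the lines of either other lineage did. Rarg was 12.3-fold higher in ES than in XEN lines (log2 fold change 3.62, SE 0.61, edgeR adjusted p = 0.00296) and 7.16-fold higher in TS than in XEN lines (2.84, SE 0.57, edgeR adjusted p = 0.00742). These values were 4.89 and 4.11 without XEN M1, and 2.94 and 2.17 without XEN M2, and all were called. In male lines alone neither was (3.82, edgeR adjusted p = 0.0678, and 3.21, adjusted p = 0.109). ES and TS lines differed by 0.78 (SE 0.49, edgeR adjusted p = 0.237).

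The mix of receptors was computed per length, as CPM per kb of merged exons. In ES F1 and M2, Rarg made up 60.4% and 54.8% of the summed RAR level and Rara 39.5% and 45.2%. In TS F1, F2 and M3, Rarg made up 39.5%, 40% and 50.1%. XEN M1 and M2 had 19.0% and 4.31% Rarg, 73.4% and 77.1% Rara, and 7.51% and 18.6% Rarb, which was at most 0.126% in the other lines. The summed RAR level was 20.2 and 30.4 CPM per kb in ES lines, 16.1 to 20.0 in TS lines, and 7.72 and 8.80 in XEN lines. XEN lines thus had the least RAR transcript per length, most of it from Rara.

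Of the partner receptors, Rxra was called in 2 comparisons and Rxrb in none. Rxra was 38.1 and 28.4 CPM in ES F1 and M2, 53.7, 89.9 and 207 CPM in TS F1, F2 and M3, and 0.133 and 1.58 CPM in XEN M1 and M2. It was 31.2-fold lower in XEN than in ES lines (log2 fold change 4.96 for ES minus XEN, SE 1.06, edgeR adjusted p = 0.00774) and 117-fold lower than in TS lines (6.87 for TS minus XEN, SE 1.12, edgeR adjusted p = 0.00325). Without XEN M1 these were 4.04 and 5.95, and without XEN M2 7.58 and 9.49; the second was 6.09 without TS M3, and all were called. In male lines alone neither was (4.74, edgeR adjusted p = 0.132, and 7.80, adjusted p = 0.0865). Rxrb lay between 38.3 and 60 CPM in all lines, and made up 99.7% and 97.3% of the summed RXR level per kb in XEN M1 and M2, against 65.4% and 72.4% in ES F1 and M2. In TS M3, Rxra made up 71.5%. Rxrg had at most 3 counts in any line.

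**Figure D4:**
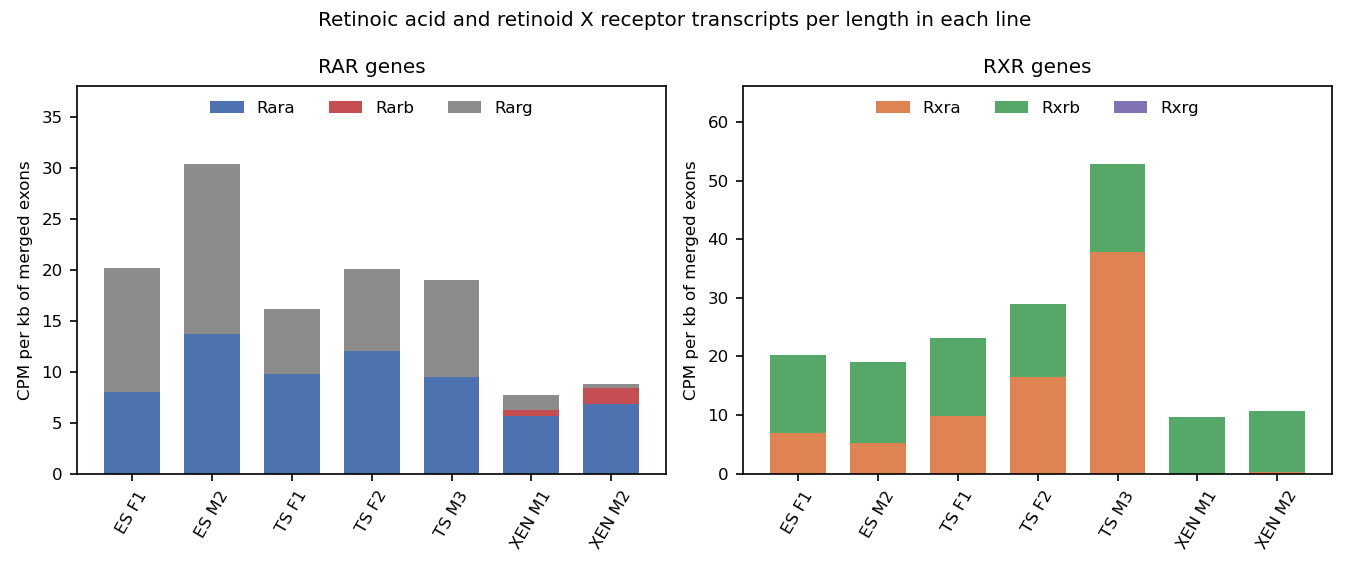
Stacked bars of the RAR genes (left) and RXR genes (right) in each line, in CPM per kb of merged exons. Rarb is visible in XEN lines alone, Rxra is all but missing there, and TS M3 has the tallest RXR bar, 53.0 CPM per kb.

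Of 10 partner receptors and cofactors, 9 were tested. In ES against TS lines 1 was higher and 1 lower, where 20.0% and 21.3% of all genes were. In ES against XEN lines 1 was higher, against 23.4% of all genes, and in TS against XEN lines 2 were higher, against 20.3%. The list median was -0.15, 0.44 and 0.37, against -0.02, 0.05 and 0.02 over all genes. Besides Rxra these were coregulators with smaller changes. Ncoa1, a coactivator gene, was 42.4 CPM in ES, 12.4 in TS and 16.6 in XEN lines, higher in ES than in TS lines (log2 fold change 1.73, SE 0.37, edgeR adjusted p = 0.0100). It was 1.74 without ES F1 (adjusted p = 0.0574) and 1.71 without ES M2 (adjusted p = 0.0579). The corepressor gene Nrip1 was just past the threshold (ES against TS -1.36, edgeR adjusted p = 0.0416). It lost its call without any 1 of 6 lines, all but TS F1, with values from -1.69 to -1.12 over the 7.

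Genes known to be induced by retinoic acid in various cells were read from a list of 21, of which 15 were tested. In ES against TS lines 2 were higher and 5 lower, in ES against XEN lines 2 higher and 6 lower, and in TS against XEN lines 4 higher and 3 lower. Of all genes, 20.0% and 21.3%, 23.4% and 21.8%, and 20.3% and 16.4% were called in these directions. The list median was -1.29, -1.33 and -0.24, against -0.02, 0.05 and 0.02 over all genes. Meis1, a homeobox gene, was 1.03 and 0.952 CPM in ES F1 and M2, 46.9, 38.4 and 24.6 CPM in TS F1, F2 and M3, and 24.8 and 29.9 CPM in XEN M1 and M2. It was lower in ES than in TS lines (log2 fold change -5.25, SE 0.37, edgeR adjusted p = 0.000159) and XEN lines (-5.12, SE 0.38, edgeR adjusted p = 0.000115), as Cyp26a1 was.

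Other genes of that list had other orders. Cdx1, a homeobox gene of the posterior embryo, was 15.1 and 24.3 CPM in ES F1 and M2 and 2.36, 4.18 and 2.72 CPM in TS F1, F2 and M3, and had 0 counts in XEN lines. With 3 counts per group as the most that 0 allows, it was at least 462-fold lower in XEN than in ES lines and at least 69.6-fold lower than in TS lines (edgeR adjusted p = 0.000231 and 0.000680). Between ES and TS lines its log2 fold change was 2.61 (edgeR adjusted p = 0.00463), and 2.25 without ES M2 (adjusted p = 0.0512). Tshz1 was 4.49 CPM in ES, 10.6 in TS and 0.740 in XEN lines. It was lower in XEN lines than in TS lines (3.54, edgeR adjusted p = 0.00272) and ES lines (2.26, adjusted p = 0.0131), the latter lost without ES F1 (1.99, adjusted p = 0.0697) or XEN M2 (2.15, adjusted p = 0.0612).

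Over all 5 lists, 65 genes were in the table and 47 were tested. In ES against TS lines 17 were called, 6 higher and 11 lower. In ES against XEN lines 19 were called, 8 higher and 11 lower, and in TS against XEN lines 19, 12 higher and 7 lower. Set against the shares of all genes given above, these counts describe the lists and mark no direction as particular to them. The ES against TS count was 5 without ES F1 and 4 without ES M2, and the TS against XEN count was 10 without XEN M1. Calls over all genes fell in the same fits, from 6063 to 2429 and 2827, and from 5385 to 3808.

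For the 8 of the 9 genes called in lines, the genes whose log2 CPM followed them most closely across the 7 lines were listed. This is a description that mostly reflects the shared lineage steps. Genes with predicted or clone names were left out of it and of the counts of tested genes below. Nearest to Rbp4 were Pofut2 (Pearson r = 0.999 across 7 lines), Ppp1r16b (0.997) and Dab2 (0.996), an endocytic adaptor gene and endoderm marker, and 321 tested genes had r above 0.95. Rarb was followed by Akr1c19 (0.999), Upk1b (0.998) and Habp2 (0.997), and Stra6 by Golph3 (0.992), Kdelr1 (0.991) and Sema6a (0.991). Cyp26a1 was followed by Gadd45g (0.996) and Kif1c (0.989), and Rarg by Rchy1 (0.994), Lipe (0.992) and Fam131c (0.990). Nearest to Crabp1 were Crtac1 (0.999), Aire (0.994) and Rad9b (0.993), to Crabp2 Mkrn1 (0.992), Mip (0.988) and Fiz1 (0.987), and to Aldh1a2 Ppp4c (0.990), Nol6 (0.988) and Med19 (0.987). Between 75 and 321 tested genes had r above 0.95 with 1 of these 8.

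In the embryos, 2 of the 9 genes had enough counts to test, 4 had counts in at most 3 embryos, and 3 were not detected. Rbp4, Stra6 and Cyp26a1 had 0 counts in all 8 embryos, which allows at most 0.0931 to 0.203 CPM in an embryo at 3 counts as the most that 0 allows. Crabp1 had 1 count, in the wild-type female, and Crabp2 had 14 counts, all in the wild-type female. Aldh1a2 had 141 counts (6.06 CPM) in the heterozygous female, 1 in null F2 and 0 in the other 6 embryos. Rara had 45 counts (1.93 CPM) in the heterozygous female, 1 each in null F2 and null M1, and 0 in the other 5. Crabp2, Aldh1a2 and Rara thus each came almost wholly from 1 embryo.

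Rarb and Rarg were the 2 genes with enough counts to test. Wild-type embryos had 3.00 CPM (female) and 5.89 CPM (male) of Rarb, and heterozygous embryos 2.75 CPM (female) and 2.91 CPM (male). The null embryos F1, F2, M1 and M2 had 0.0610, 0.548, 4.73 and 0 CPM. Null M1 was within the range of the Nanog-bearing embryos (wild type and heterozygous), and the other null embryos were below it. The log2 fold change of null against Nanog-bearing embryos was -1.97 (SE 2.03, edgeR adjusted p = 0.991), a value that was -4.43 without null M1 (adjusted p = 0.654) and -0.86 without both null F1 and M2 (adjusted p = 0.962).

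Rarg was 4.61 and 6.24 CPM in the female and the male of wild type, and 1.68 and 7.31 CPM in those of heterozygous genotype. Null F1, F2, M1 and M2 had 0.122, 2.47, 5.30 and 0.300 CPM. The groups overlapped, with null M1 and F2 above the heterozygous female. The log2 fold change was -1.18 (SE 1.57, edgeR adjusted p = 0.998). Left-out embryos moved it between -2.29 (without null F2) and -0.78 (without null M2), and without both null F1 and M2 it was -0.25.

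Of the 2 genes tested, edgeR called 0, DESeq2 called 0, and 0 had an unadjusted p under 0.05, where 0.0154% of all tested genes were called (2 of 12965) and 644 had an unadjusted p under 0.05. The 2 null embryos near 0 for both genes were also those that lacked the most other genes. Null F1 and M2 had 570 and 809 genes at 3 counts or fewer whose mean in the other embryos was at least 5 CPM, null F2 and M1 had 300 and 133, and the Nanog-bearing embryos 40 to 68. The part of these losses in the values of Rarb and Rarg was not tested. Of the 65 list genes, 36 were tested in embryos and edgeR called 0. The authors' deposited table of 78 Nanog-regulated genes held 0 of the 9 genes and 0 of the list genes.

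**Figure D5:**
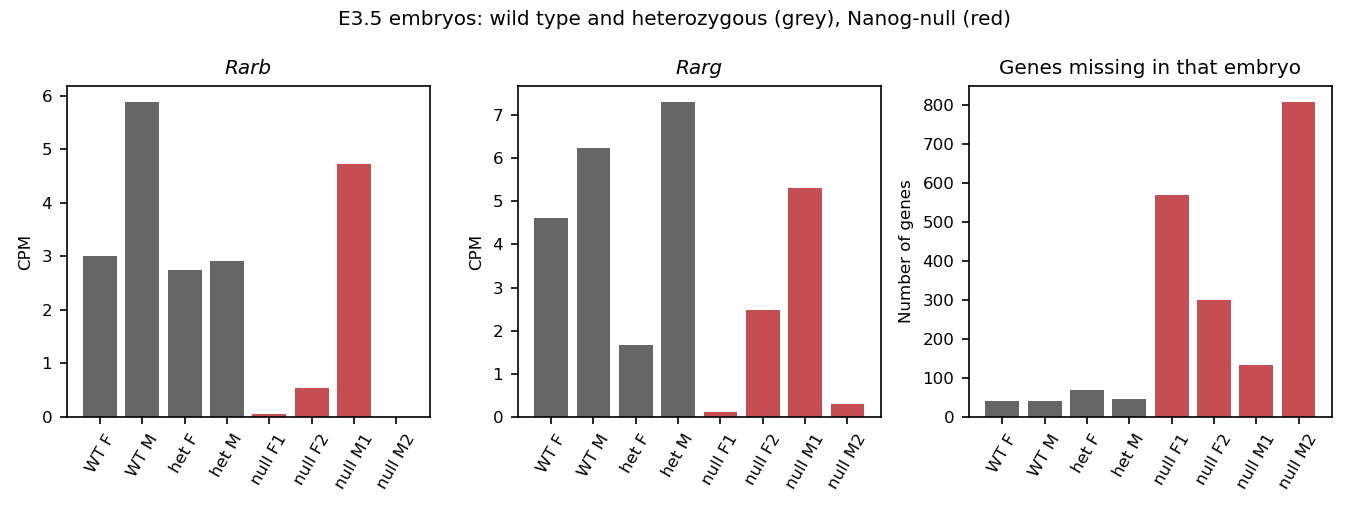
Rarb and Rarg in CPM (left and middle) and the number of genes missing (right: 3 counts or fewer, with a mean of at least 5 CPM in the others) in each of the 8 embryos, grey for wild type and heterozygous and red for Nanog-null. Null F1 and M2 have the lowest bars for both genes and the highest counts of missing genes.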

How the data were processed

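The authors deposited raw counts per gene symbol, not normalized, for 22 libraries. TopHat 1.3.1, edgeR and the mm9 build are named per the submitters' processing notes. Strandedness, gene models and counting software were not given in the sources used here, so reads of overlapping genes cannot be told apart. In a second deposited table the authors give up or down per gene, and its 22 value columns were not used because their unit is not stated. Counts of the technical replicates of each line were summed. Their numbers did not pair the libraries. Lines and embryos were fitted separately by the robust quasi-likelihood test of edgeR 4.0.16 (R 4.3.3) after TMM scaling and filterByExpr, with lineage as the only term in lines, and with genotype and sex in embryos, where null was set against wild type and heterozygous, each given equal weight. P-values were adjusted by Benjamini-Hochberg over 14687 genes in lines and 12965 in embryos. SEs were computed as |log2 fold change|/√F. Per-kb levels use merged exons of the GENCODE annotation of another build, for lengths only. Embryo limits of 3 counts and 95% intervals cover counting error only. The 9 genes, the 5 lists and the tests were chosen with earlier results of these data known. From each list up to 4 called genes were named by smallest adjusted p, or up to 2 as values; Tgm2, Rxrb, Rxrg, Aldh1a1 and Aldh1a3 were named after their values were seen. Some genes that this rule names are not reported here, and counts include them. Scripts were tested on simulated counts. Alternatives used DESeq2 1.42.0 and limma 3.58.1.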

Additional observations from a re-analysis of the deposited data

Results flagged for a closer look

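In groups of 4 to 10 samples, the highest or lowest sample was compared with its nearest neighbour, by Dixon's limit at the 95% level, for 22 groups of the 9 genes. Chance passes about 5% of groups of independent, normally distributed samples, and 3 passed. Whether CPM values are so distributed was not tested. Libraries of lines are not independent, since each line gave 2, so that share does not hold for them. Stra6 in the technical replicate 1 library of TS M3 was 43.5 CPM, where the next of the 6 TS libraries was 4.89 CPM and the lowest 0.289 CPM. Aldh1a2 in the same library was 4.72 CPM, where the next was 1.82 CPM and the lowest 0.0964 CPM. In both cases the next library was the other one of TS M3. Rarb in null embryo M1 was 4.73 CPM, where the next null embryo was 0.548 CPM and the lowest 0 CPM, and M1 was the null embryo that lacked the fewest genes, 133.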

How the results depend on the processing

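With 2 or 3 lines a group, calls of genes with few counts depended on single lines. Of 1120 gene values under an alternative, 978 kept their direction and side of the threshold, 98 lost a call, 19 gained one and 25 changed sign, all of the last in differences that the fit described above did not call. The 9 genes gave 4 ES against TS calls, 2 from technical replicate 1 libraries alone, 1 from male lines alone, and 2 to 5 with a line left out. ES against XEN gave 8, and 5 from male lines. The lists gave 17 calls for ES against TS, 6 from male lines and 4 to 19 with a line left out. They gave 19 for ES against XEN, 9 from male lines, and 19 for TS against XEN, 12 from male lines, 12 from technical replicate 1 libraries and 10 to 19 with a line left out. Calls over all genes in male lines and without ES F1, ES M2 or XEN M1 are given above, and they fell too. Technical replicate 1 libraries called 5169 of 13795 genes in ES against TS and 4098 in TS against XEN, down from 6063 and 5385. Scaling by library totals shifted the median of all genes by 0.338 in ES against XEN, 0.276 in TS against XEN and -0.102 in embryos. It left 4, 8 and 5 of the 9 genes called in ES against TS, in ES against XEN and in TS against XEN. Over all 14687 genes, 5975, 6850 and 5393 were called in that order.

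Signs changed for Rara, ES against TS: 0.06 by library totals, 0.06 with technical replicate 2, 0.34 in male lines, 0.05 with TS M3 by 1 library, and -0.42 to 0.31 with a line left out. For Rarb, ES against TS, they were -0.05 with limma voom, -0.33 with technical replicate 1, and -0.10 to 0.18 with a line left out. For Crabp2, TS against XEN, they were 0.03 by library totals, 0.43 in male lines, and -0.64 to 0.20 with a line left out. For Cyp26a1, TS against XEN, they were 0.03 with RLE size factors, 0.28 by library totals, 0.03 with DESeq2, 0.05 with 14 libraries as samples, 0.05 with the replicate block, 0.78 with limma voom, 0.37 with technical replicate 2, 0.07 with TS M3 by 1 library, and -0.85 to 2.24 with a line left out. Under library totals the sign changes follow the shift of all genes, 0.276 in TS against XEN and 0.063 in ES against TS, and the cause of the others was not tested.

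With the replicate number as a block over 14 libraries, 4, 7 and 6 of the 8 genes tested were called (ES against TS, then ES against XEN, then TS against XEN), and 23, 23 and 21 of 37 list genes, where 8025, 8215 and 7275 of 13759 genes were called in all. Crabp2 did not pass the filter there, and Stra6 was called in ES against TS (-5.70, edgeR adjusted p = 0.0273) and in TS against XEN (-4.97, adjusted p = 0.00515). Same-numbered libraries of different lines did not deviate together (correlation over 21 pairs of lines from -0.33 to 0.13), so the samples share only a number. Left-out embryos, other scalings, DESeq2 and wild type as the only control gave 0 calls for the 9 genes in embryos, where the spread between embryos (biological coefficient of variation 0.979, against 0.346 in lines) limits what can be seen.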
